A study of Mus musculus with 17 samples.

Results

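The effect of PCN shared by wild-type and Pxr-/- mice was measured in the colon by comparing PCN-injected with corn oil-injected animals over both genotypes at once. Of the 17 colon arrays of the series, 13 entered this comparison, 5 from PCN-injected mice (2 WT and 3 Pxr-/-) and 8 from controls (CONT, 4 WT and 4 Pxr-/-). Each array is the sample of a single male mouse on the C57BL/6J background, hybridised in a single colour to an Agilent mouse gene expression array. PCN (pregnenolone carbonitrile) was injected into the peritoneum once a day on 4 days, at a dose of 100 mg/kg with corn oil as the vehicle, while CONT mice received the oil, and colons were collected 6 hours after the final dose. WT mice were bought at 6 weeks of age, whereas Pxr-/- mice, which lack the receptor in every tissue, came from a colony bred in the study's own facility. Genotype and origin of the mice therefore cannot be told apart. Mice of both genotypes were acclimatized for 2 weeks before allocation. The age of the Pxr-/- mice is not given in the sources used here.

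The other 4 arrays were left out because their values pair up across labels. WT PCN replicate 4 and Pxr-/- PCN replicate 2 differed over 36695 probes with an SD of 0.165 log2 units, and WT PCN replicate 3 and Pxr-/- CONT replicate 2 with an SD of 0.233. The closest pair among the remaining arrays had an SD of 0.264 and the most distant pair of all 136 had 0.600. The arrays were selected on these distances, which are given as a description. The library labelled WT PCN replicate 4 also read low for Ces2a (10.66, against 11.42 to 11.98 in WT CONT) and Nr1i2 (11.29, against 11.83 to 12.45), and the library labelled WT PCN replicate 3 did so too (9.86 and 11.25). The Nr1i2 probe does not test the genotype labels. Among the arrays kept, Pxr-/- PCN replicate 3 read 12.09 for Nr1i2, inside the WT CONT range, and 11.11 for Ces2a, below that range.

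PXR (encoded by Nr1i2) is a nuclear receptor of liver and intestine that binds many drugs and steroids and switches on genes of drug oxidation, conjugation and export. PCN is a steroid that activates rodent PXR, and Pxr-/- mice serve to read the changes under PCN where the receptor is lacking. The route by which such changes arise was not tested. In the colon wall, a rise of neutrophil transcripts together with CXC chemokines, interleukins and venule adhesion molecules is the textbook picture of acute inflammation, in which leukocytes leave the blood through post-capillary venules.

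The deposited values are log2 probe signals, and a difference of 1 is therefore a doubling. A probe was called when it changed more than 1.5-fold with a Benjamini-Hochberg adjusted p no higher than 0.05 in the limma fit. Over both genotypes 58 of 23588 genes (0.246%) were called. PCN raised 56 of them (0.237% of the genes) and lowered 2 (0.00848%), as the plot of change against p shows. The genes were thus chosen by their change and p in this contrast, and their values in it are a description of the selected genes. The 5 PCN arrays lay above all 8 CONT arrays, or below them, for 37 of the 58, while over all genes 0.496% lay above and 0.259% below. At an unadjusted p under 0.05 the fit held 3201 probes, 1945 of them higher. The changes of the called genes reached 14.3-fold, and 37 of the 58 changed more than 2-fold. Of the 58, 53 had a gene symbol and 5 another identifier. The p-values rest on the spread between arrays, one animal each, that is left after treatment, genotype and wash batch. In this fit a difference of the PCN effect between genotypes adds to that spread.

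**Figure D1:**
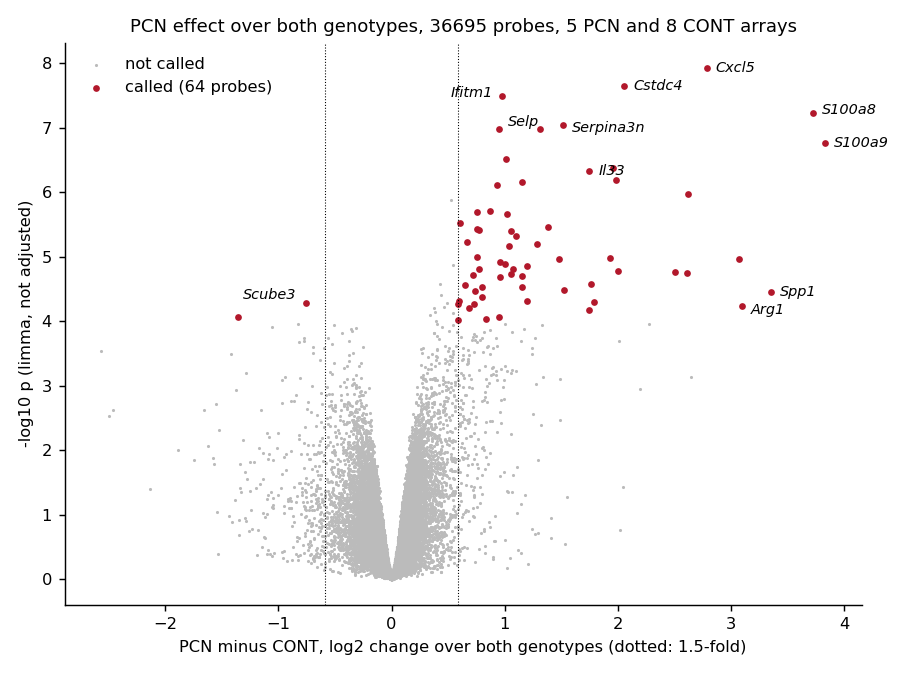
PCN minus CONT log2 change over both genotypes (horizontal) against -log10 of the unadjusted limma p (vertical) for 36695 probes. The 64 called probes are in red, 62 to the right of the upper dotted line of 1.5-fold and 2 to the left of the lower, with S100a9 at 3.83 farthest to the right.

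The share of probes well above background was 63.7% to 71.0% on PCN arrays and 62.7% to 69.9% on CONT arrays (two-sided exact permutation within genotype, p = 0.255), and the median background was 20 to 28 against 20 to 27.5 scanner units (exact permutation p = 0.964). All 15 colonocyte markers were well above background on all 13 arrays, and their mean log2 value was 15.18 to 15.51 under PCN and 15.23 to 15.49 in CONT. Markers of other tissue and of position along the gut varied widely. The mean log2 value of 9 pancreatic enzyme genes was 7.27 to 11.13 on PCN arrays and 7.75 to 16.67 on CONT arrays, with the highest value in WT CONT replicate 4, and the mean of 5 hindgut Hox genes was 6.88 to 10.87 against 7.93 to 10.28. The mean of 8 markers of proximal colon and small intestine was 7.90 to 12.56 against 7.49 to 10.82. Pxr-/- PCN replicate 4 held both the lowest hindgut mean and the highest proximal mean. The part of these differences in the results was not tested.

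Nr1i2 itself was read by a single probe. Its log2 values were 11.83, 11.91, 12.13 and 12.45 in WT CONT and 10.54, 11.05, 11.17 and 11.45 in Pxr-/- CONT. Under PCN they were 11.98 and 12.29 in WT and 11.20, 11.49 and 12.09 in Pxr-/-. The value of 12.09, from Pxr-/- PCN replicate 3, lay inside the WT CONT range. The Pxr-/- CONT arrays all lay below the WT CONT arrays, but signal remained in the null mice, and the place of the probe relative to the deleted part of the gene is not given in the sources used here, so this probe does not test the genotype labels. PCN changed Nr1i2 by 0.33 ± 0.20 (SE, adjusted p = 0.694).

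Genes of neutrophils made up the largest single group. S100a8 and S100a9 encode the subunits of calprotectin, an abundant protein of the neutrophil cytosol. S100a9 stood at 12.41 and 13.47 in WT PCN and at 12.53, 11.05 and 11.76 in Pxr-/- PCN, whereas the 8 CONT arrays ran from 7.35 to 10.06 with a median of 8.31. S100a8 stood at 10.87 and 12.14 in WT PCN and 10.70, 9.52 and 10.37 in Pxr-/- PCN, against 5.95 to 8.53 in CONT (median 6.85). The lowest PCN array was above the highest CONT array for both genes, in mice with and without the receptor. S100a9 rose 14.3-fold (log2 change 3.83 ± 0.35 SE, adjusted p = 0.000787) and S100a8 13.2-fold (3.73 ± 0.31, adjusted p = 0.00054). Within genotypes, S100a9 differed by 3.70 ± 0.55 in WT and 3.94 ± 0.48 in Pxr-/-.

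**Figure D2:**
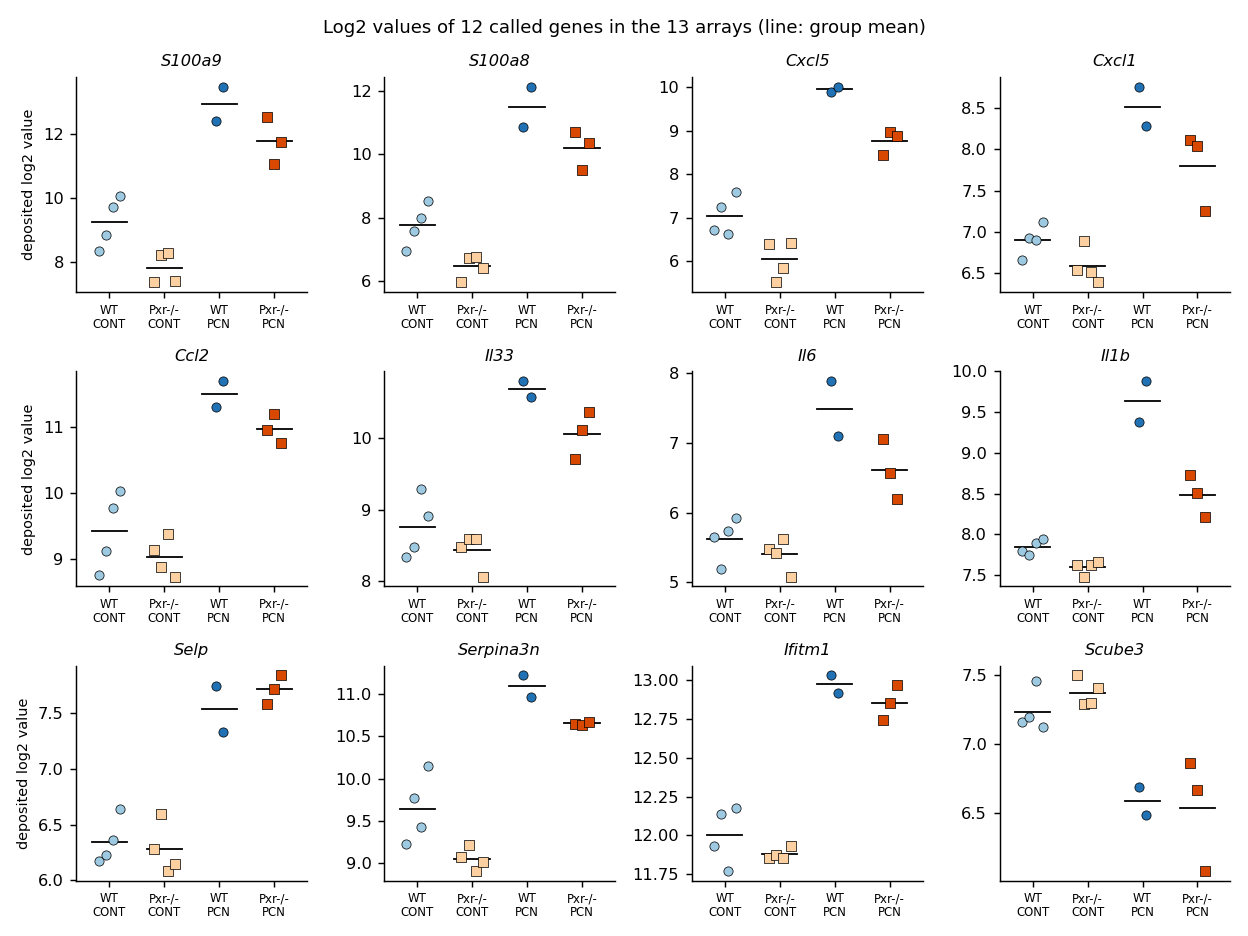
Deposited log2 values of 12 called genes (vertical, scale differs by panel) in the 13 arrays by group, circles for WT and squares for Pxr-/-, with a line at each group mean. For each of the 12 genes the 5 PCN arrays lie on one side of the 8 CONT arrays, as for Selp (7.33 to 7.84 against 6.09 to 6.64), and Scube3 alone is lower.

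Of 17 measured neutrophil markers, 10 were called higher and none lower, and their median log2 change was 1.15 beside -0.00 over all genes. Beside the calprotectin pair the called markers were Clec4d and Clec4e, lectin receptors of myeloid cells, Retnlg, a resistin-like secreted protein, Il1r2, the decoy receptor for interleukin-1, the granule proteases Mmp8 and Mmp9, and the stefins Stfa1 and Stfa2l1, inhibitors of cysteine proteases. Retnlg was 8.87 and 9.74 in WT PCN and 8.84, 8.36 and 8.90 in Pxr-/- PCN, above every CONT array (6.49 to 7.78, median 6.95), a change of 1.93 ± 0.26 (adjusted p = 0.0125). Il1r2 was 7.87 on both WT PCN arrays and 7.41, 7.47 and 7.02 in Pxr-/- PCN, against 6.15 to 6.91 in CONT (median 6.52), a change of 1.02 ± 0.12 (adjusted p = 0.00423). The markers that were not called included Cxcr2, the receptor of the CXC chemokines on neutrophils (1.24, adjusted p = 0.0745), Ly6g (0.38, adjusted p = 0.938), Csf3r (-0.02) and the granule gene Camp (-0.40, adjusted p = 0.206). In a bulk sample more cells of a type and more RNA per cell cannot be told apart. The list mean of the 17 markers was 7.89 to 9.01 on PCN arrays and 6.70 to 7.64 on CONT arrays, with all 5 PCN arrays above all CONT arrays. That separation is a description, since 10 of the 17 were called on these same arrays. The list was also chosen with earlier results of these data known.

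The stefins belong to a gene cluster of near-identical copies on chromosome 16, and their probes show how far the array can tell them apart. Of 2016 pairs among the 64 called probes, 1 matched at 80% or more over at least 25 bases without gaps, the probe of Stfa2l1 and that of a transcript known here by its identifier ENSMUST00000077110, which agree at 50 of 60 bases. The probe sequences are shown with the bases that differ between them in capitals.
Stfa2l1, mm9 chr16:36160118-36161876, plus strand: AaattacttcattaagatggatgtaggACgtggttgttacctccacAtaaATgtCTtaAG
ENSMUST00000077110, mm9 chr16:36136075-36137745, plus strand: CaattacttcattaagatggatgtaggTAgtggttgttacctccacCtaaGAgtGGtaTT
The ends of each probe lie farther apart in the genome than its 60 bases, so that each spans a splice junction. With 10 differing bases, some signal of either transcript may come from the other, and the values of the family are uncertain to that extent. Stfa2l1 was not well above background on any CONT array and stood at 6.39 to 7.87 on the 5 PCN arrays, at least 3.41-fold higher (measured means 6.94 and 5.02, adjusted p = 0.00153). ENSMUST00000077110, also not well above background on any CONT array, was at least 1.75-fold higher (5.96 and 4.93, adjusted p = 0.0161). Cstdc4, a stefin A relative, was likewise not well above background in CONT and at least 3.55-fold higher under PCN (7.02 and 5.02, adjusted p = 0.000392). Stfa1 changed by 1.15 ± 0.17 (adjusted p = 0.0165), while Stfa2 (1.25, adjusted p = 0.225) and Stfa3 (0.45, adjusted p = 0.681) were not called.

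A further set of myeloid genes reached large changes with more spread between the PCN arrays. Spp1, which encodes the secreted adhesion protein osteopontin, was 9.70 and 12.51 in WT PCN and 10.65, 10.67 and 8.44 in Pxr-/- PCN, against 5.99 to 8.78 in CONT (median 6.98). Arg1, the arginase of alternatively activated macrophages and of neutrophil-like myeloid cells, was 10.67 and 12.60 in WT PCN and 11.00, 10.95 and 8.49 in Pxr-/- PCN, against 6.31 to 10.13 in CONT (median 7.45). For both genes Pxr-/- PCN replicate 4 lay inside the range of the 8 CONT arrays and the other 4 PCN arrays above it. Against its own genotype that array was higher, since Pxr-/- CONT arrays ran from 5.99 to 6.61 for Spp1 and from 6.31 to 7.09 for Arg1, and the overlap came from WT CONT arrays, at 7.35 to 8.78 and 7.80 to 10.13. The changes were 3.35 ± 0.52 for Spp1 (adjusted p = 0.0243) and 3.10 ± 0.51 for Arg1 (adjusted p = 0.0343). Set against the CONT array of the same genotype on the same slide, Arg1 differed by 1.45 log2 for Pxr-/- PCN replicate 4, 3.46 for WT PCN replicate 2 and 2.87 for WT PCN replicate 1. When each of the 13 arrays was left out in turn, Arg1 was called in 3 of the 13 fits and Spp1 in 5. Chil3, a chitinase-like protein of macrophages and neutrophils, also had its lowest PCN value in Pxr-/- PCN replicate 4 (3.07 ± 0.42, adjusted p = 0.0125), as did Clec4d (2.62 ± 0.28), Clec4e (2.61 ± 0.37) and Serpinb2, the intracellular inhibitor of plasminogen activators (2.50 ± 0.36, adjusted p = 0.0157). Of 18 macrophage and monocyte markers only Arg1 and Chil3 were called, 17 of the 18 had a positive change, with a median of 0.33, and the pan-macrophage genes Adgre1 (0.20), Csf1r (0.10) and Itgam (-0.07) had adjusted p-values of 0.813 to 0.933.

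Chemokines that attract neutrophils and monocytes were called as well. Cxcl5 and Cxcl1 are ligands of CXCR2 that recruit neutrophils, and Ccl2 and Ccl7 are ligands of CCR2 that recruit monocytes. Cxcl5 was 9.90 and 10.01 in WT PCN and 8.45, 8.97 and 8.88 in Pxr-/- PCN, while CONT arrays ran from 5.51 to 7.60 (median 6.52). Ccl2 was 11.31 and 11.70 in WT PCN and 10.95, 11.20 and 10.77 in Pxr-/- PCN, while CONT arrays ran from 8.74 to 10.04 (median 9.14). Neither gene overlapped between the treatments, and the same held for Cxcl1 and Ccl7. Cxcl5 rose 6.90-fold (2.79 ± 0.20, adjusted p = 0.000392), Ccl2 3.96-fold (1.99 ± 0.20, adjusted p = 0.00197), Ccl7 2.87-fold (1.52 ± 0.23, adjusted p = 0.0236) and Cxcl1 2.61-fold (1.39 ± 0.17, adjusted p = 0.00603). In all, 5 of 39 measured chemokines and receptors were called, the fifth being Ackr1, with a list median of 0.11. The interferon-induced Cxcl9 (-0.25), Cxcl10 (0.00) and Ccl5 (-0.25) and the B cell chemokine Cxcl13 (0.13) had adjusted p-values of 0.918 or more. Ccl24, an eosinophil attractant, had a change of 2.20 that did not pass the test (adjusted p = 0.149).

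Among 21 cytokines measured, Il33, Il6, Il1b and Osm were called, all higher. Il33 is a nuclear alarmin of epithelial and stromal cells. Its log2 values were 10.80 and 10.58 in WT PCN and 9.71, 10.11 and 10.37 in Pxr-/- PCN, against 8.07 to 9.29 in CONT (median 8.54), a change of 1.75 ± 0.17 (adjusted p = 0.00155). A second Il33 probe went the same way without passing the test (0.73, adjusted p = 0.572). Il6, the inducer of the acute-phase response, was 7.88 and 7.09 in WT PCN and 7.05, 6.57 and 6.19 in Pxr-/- PCN, against 5.08 to 5.91 in CONT (median 5.55), a change of 1.48 ± 0.20 (adjusted p = 0.0125). Il1b, the interleukin released by activated myeloid cells, was 9.38 and 9.88 in WT PCN and 8.73, 8.51 and 8.21 in Pxr-/- PCN, against 7.48 to 7.94 in CONT (median 7.70), a change of 1.29 ± 0.17 (adjusted p = 0.00864). All PCN arrays lay above all CONT arrays for these 3 genes. Osm, which encodes oncostatin M, rose by 1.08 ± 0.15 (adjusted p = 0.0148), and its receptor Osmr by 0.93 ± 0.10 (adjusted p = 0.00201). Tnf (0.33, adjusted p = 0.814), Ifng (-0.03), Tslp (0.08) and Il18 (-0.22) did not pass.

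Several called genes encode secreted or stress-response proteins and were picked for mention after their values were seen. Serpina3n, a secreted acute-phase serpin, was 11.22 and 10.96 in WT PCN and 10.64, 10.64 and 10.68 in Pxr-/- PCN, against 8.91 to 10.15 in CONT (median 9.23), a change of 1.52 ± 0.13 (adjusted p = 0.00054). Its neighbour Serpina3i rose on both of its probes (1.15 and 0.67), while Serpina3f, Serpina3g, Serpina3h and Serpina3m were not called, and signal from such close copies may be shared between their probes. Timp1, the tissue inhibitor of metalloproteinases, rose by 1.76 ± 0.26 (adjusted p = 0.0208), and 3 of the 5 PCN arrays lay above the highest CONT array. Tnfaip6, which binds hyaluronan, rose by 0.96 ± 0.13 (adjusted p = 0.0136), and Tnfaip2 by 0.78 and 0.77 on its probes. Hmox1, the haem oxygenase of the NRF2 response, rose by 1.05 ± 0.13 (adjusted p = 0.00609) as the only called gene of 14 AHR and NRF2 targets. Nqo1 (0.12), Gclm (0.21) and Txnrd1 (0.17) of that list did not pass, nor did Cyp1b1 (1.28, adjusted p = 0.136). The mean log2 value of the 14 was 10.60 to 10.81 on PCN arrays and 10.37 to 10.59 on CONT arrays, without overlap. Their median change was 0.18, with 11 above 0 and 3 below.

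Of 20 endothelial adhesion genes measured, Selp and Ackr1 were called. Selp encodes P-selectin of endothelium and platelets, on which leukocytes roll along venules, and Ackr1 a chemokine-binding receptor of venular endothelium and red cells. Selp was 7.74 and 7.33 in WT PCN and 7.58, 7.71 and 7.84 in Pxr-/- PCN, against 6.09 to 6.64 in CONT (median 6.25), a change of 1.31 ± 0.11 (adjusted p = 0.00054), and its other probes were called too, one at 0.95 and the other, not well above background on any CONT array, at least 1.61-fold higher. Ackr1 was 8.80 to 8.94 on all PCN arrays against 7.99 to 8.47 in CONT (median 8.31), a change of 0.60 ± 0.07 (adjusted p = 0.00555). Icam1 passed the p threshold without the fold (0.38, adjusted p = 0.0389). The general endothelial genes Pecam1 (-0.04), Cdh5 (0.02) and Kdr (-0.10) had adjusted p-values of 0.882 or more, and the list median was 0.05.

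Ifitm1, which encodes an interferon-induced transmembrane protein, stood at 12.74 to 13.03 on PCN arrays and 11.77 to 12.18 on CONT arrays (0.97 ± 0.08, adjusted p = 0.000392), with a change of 0.97 ± 0.12 in WT and 0.98 ± 0.11 in Pxr-/-. Ifitm6 rose by 1.01 ± 0.10 (adjusted p = 0.00124), and Ifitm3 (0.46, adjusted p = 0.186) was not called. The interferon list held no called gene among 27 and had a median of -0.03.

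The remaining called genes on the lists were Aldh1a3, a retinaldehyde dehydrogenase (0.95 ± 0.16, adjusted p = 0.0439, called in 2 of the 13 fits that left out an array), Hdc, the enzyme that forms histamine (1.79 ± 0.29, adjusted p = 0.032), Ltb4r1, the leukotriene B4 receptor of leukocytes (0.59 ± 0.10, adjusted p = 0.047), and Calca. Aldh1a3 did not overlap between treatments, at 9.69 to 10.59 under PCN and 8.92 to 9.40 in CONT. Hdc overlapped in Pxr-/- PCN replicate 4 (7.31 against a CONT maximum of 7.48, which is a WT array, and a Pxr-/- CONT maximum of 6.92). Calca encodes calcitonin and its gene-related peptide and is expressed by enteroendocrine cells and sensory neurons. It was 8.35 and 8.15 in WT PCN and 7.10, 7.22 and 6.90 in Pxr-/- PCN, all above CONT (5.05 to 6.34, median 5.88), a change of 1.75 ± 0.29 (adjusted p = 0.0368). The change was 2.72 ± 0.22 in WT and 0.98 ± 0.20 in Pxr-/-, the largest gap between genotypes among the called genes, and the test of that difference gave an adjusted p of 0.63. Of the other 17 enteroendocrine genes none was called. Outside the lists, Cyp7b1, a steroid hydroxylase, rose by 0.80 ± 0.13 (adjusted p = 0.0279), Tgm1, a transglutaminase of squamous and injured epithelium, by 0.87 ± 0.10 (adjusted p = 0.00414), and Sphk1, which forms sphingosine 1-phosphate, by 0.60 ± 0.10 (adjusted p = 0.0316). Pip5k1a rose on 1 of its 3 probes (1.20 against 0.04 and 0.15). Of the 13 further probes of called genes that were not themselves called, all 13 had the direction of the called probe, but 7 changed less than 1.5-fold. Beside those of Pip5k1a, these were probes of Ackr1 (0.52), Aldh1a3 (0.35), Cyp7b1 (0.40), Il1r2 (0.56) and Osmr (0.39). Only the Ackr1 probe passed the p threshold (adjusted p = 0.00306).

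Scube3, a secreted signal-peptide and EGF-domain protein, was the called gene with a symbol that fell. It was 6.69 and 6.49 in WT PCN and 6.87, 6.67 and 6.08 in Pxr-/- PCN, below every CONT array (7.12 to 7.50, median 7.29), a fall by 0.76 on the log2 scale (SE 0.12, adjusted p = 0.0321), and it was called in 3 of the 13 fits that left out an array. The other called lower feature, chosen for mention after its values were seen, is a transcript without a symbol, ENSMUST00000197560, at 9.69 to 10.72 under PCN and 10.86 to 12.06 in CONT (fell by 1.36, adjusted p = 0.0439).

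Just inside the threshold were Mmp8 (adjusted p = 0.046) and Ltb4r1 (0.047), each called in 2 of the 13 fits that left out an array, and just outside it were Acod1, the itaconate-forming enzyme of activated macrophages (2.28, adjusted p = 0.0514), and Hcar2, the receptor of nicotinate and butyrate (1.00, adjusted p = 0.0514).

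Whether the change was shared by the genotypes was examined in arrays that do not overlap. A fit to the Pxr-/- arrays alone held 132 higher probes at an unadjusted p under 0.01 and a fold over 1.5, and 121 of them (91.7%) were also higher in the WT arrays, where 48.5% of all probes were higher. Their median change in WT was 0.90, beside a median of all probes within 0.01 of 0. Of 149 lower probes chosen in Pxr-/-, 74.5% were lower in WT beside 51.5% of all probes, with a median of -0.17. Chosen the other way round, 190 probes were higher in WT and 87.9% of them were higher in Pxr-/- (53.2% of all probes), with a median of 0.51. Across all 36695 probes the WT and Pxr-/- changes correlated with r = 0.318 (Spearman 0.20), a description over probes that are not independent of each other and were normalised together.

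**Figure D3:**
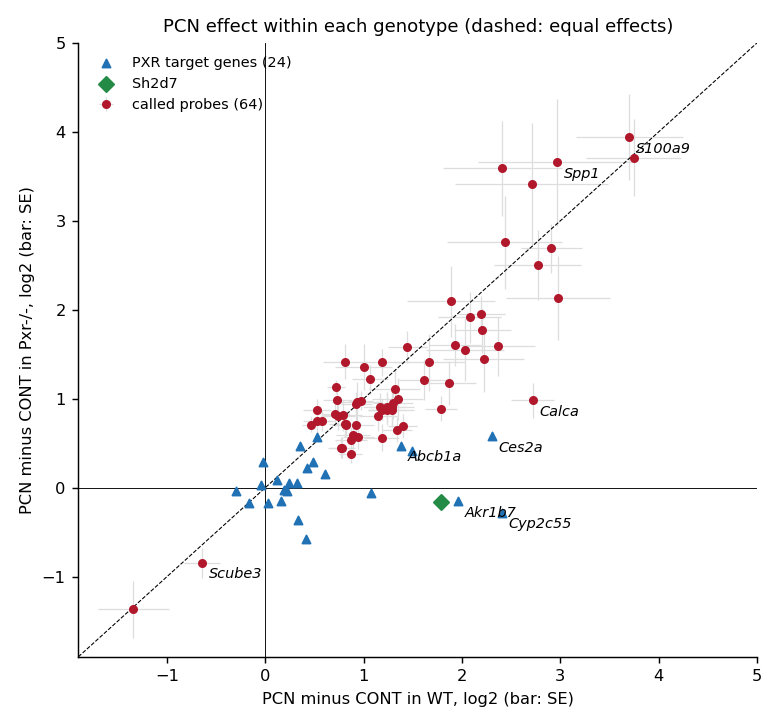
PCN minus CONT log2 change in WT (horizontal) against Pxr-/- (vertical), with SE bars for the 64 called probes (red circles), the 24 measured PXR target genes (blue triangles) and Sh2d7 (green diamond). Called probes scatter to both sides of the dashed line of equal changes, with Calca (2.72 in WT, 0.98 in Pxr-/-) farthest from it. Ces2a, Akr1b7, Cyp2c55 and Sh2d7 lie to the right near 0 or below 1 on the vertical axis.

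In the fit with separate effects by genotype, 19 genes were called within WT and 16 within Pxr-/-. All 64 called probes of the joint fit had the same direction in both, which the joint fit favours, and the smallest adjusted p for a difference between genotypes among them was 0.63. Of the 64, 7 had an unadjusted p under 0.05 for that difference, beside 1085 of all 36695 probes. Among the 7 were Il1b (1.79 ± 0.16 in WT, 0.89 ± 0.14 in Pxr-/-) and Calca. Over all genes the test of the difference called 1 (0.00424%), Sh2d7, an adaptor protein of tuft cells. Sh2d7 was 8.11 and 8.42 in WT PCN and 6.20, 6.26 and 6.47 in Pxr-/- PCN, with all CONT arrays between 6.28 and 6.63, and the difference of its changes was 1.94 ± 0.18 (adjusted p = 0.0153), a call lost in 7 of the 13 fits that left out an array. Akr1b7 followed with a difference of 2.12 ± 0.26 (adjusted p = 0.111).

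None of 24 measured PXR target genes was called over both genotypes, their median change was 0.16, and the list median was 0.34 in WT and 0.04 in Pxr-/-. Ces2a, a carboxylesterase, had a mean of 14.01 ± 0.01 (SD, n = 2) in WT PCN, above 11.42 to 11.98 in WT CONT, whereas Pxr-/- PCN held 10.21, 10.73 and 11.11 beside 9.86 to 10.25 in Pxr-/- CONT. Abcb1a, the drug efflux pump P-glycoprotein, was 15.17 and 15.45 in WT PCN above 13.75 to 14.09 in WT CONT, and 13.41, 13.68 and 13.75 in Pxr-/- PCN beside 12.98 to 13.46. The joint fit gave 1.34 ± 0.29 for Ces2a (adjusted p = 0.125) and 0.87 ± 0.16 for Abcb1a (adjusted p = 0.0577), averages of a change of 2.30 in WT with 0.58 in Pxr-/- and of 1.38 with 0.47. Akr1b7 changed by 1.96 ± 0.19 in WT and -0.15 ± 0.17 in Pxr-/-. Cyp3a11, the classical PXR-induced P450 of liver, was low in the colon, at 6.91 and 7.48 in WT PCN and 6.44 to 6.57 in Pxr-/- PCN against 6.14 to 6.81 in CONT (0.35, adjusted p = 0.48). Abcb1b (0.89), Cyp2c55 (0.90), Alas1 (0.44), Gsta2 (0.55), Cd36 (0.42), Gsta4 (0.38) and Por (0.31) had positive changes that did not pass. Of these, Cyp2c55 changed by 2.40 in WT and -0.28 in Pxr-/-, and Alas1 by 1.08 and -0.06. The other 13 genes of the list lay between -0.17 and 0.17. Some of them had wide errors (SE 1.07 for Cyp2c65, 1.05 for Cyp2c66, 0.60 for Cyp2c29 and 0.54 for Aldh1a1), and these values do not show an absence of change.

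**Figure D4:**
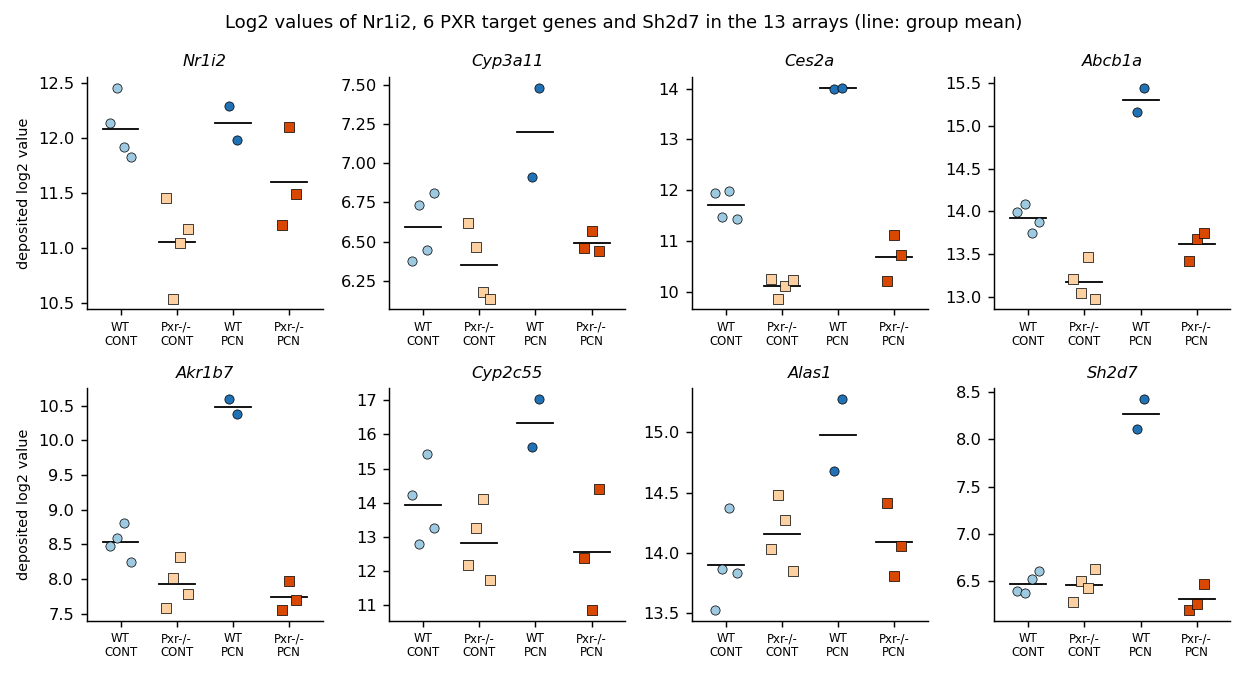
Deposited log2 values (vertical, scale differs by panel) of Nr1i2, 6 PXR target genes and Sh2d7 in the 13 arrays by group, with a line at each group mean. Ces2a, Abcb1a, Akr1b7 and Sh2d7 are highest in the 2 WT PCN arrays, and the Pxr-/- PCN arrays lie below them.

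Among 27 genes of aldehyde and ketone metabolism Aldh1a3 alone was called. None was called among 35 P450 and carboxylesterase genes (median 0.07), 38 conjugation enzymes (0.08) and 43 transporters (0.02). None of 23 glucocorticoid response genes was called. Their mean log2 value was 11.53 to 11.90 on PCN arrays and 11.19 to 11.46 on CONT arrays without overlap. Their median change was 0.21, with 17 above 0 and 6 below, and the changes ran from -0.30 to 2.05. The metallothionein Mt2 (1.33, adjusted p = 0.0518), the lipocalin Lcn2 (1.15, adjusted p = 0.0662) and Mt1 (0.83, adjusted p = 0.102) had the smallest adjusted p-values of the list. A glucocorticoid response was not tested. Genes of cholesterol synthesis had a change below 0 in 24 of 24, with a median of -0.23 (-0.00 in WT and -0.42 in Pxr-/-), and none passed. Lists of PPAR-alpha targets (30 genes, median 0.04), fatty acid synthesis (22, -0.05), clock genes (18, 0.17), steroidogenesis (13, -0.00) and nuclear receptors (37, -0.01) held no called gene, and the eicosanoid list (28, -0.01) held Ltb4r1 alone.

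Markers of the other cell types of the colon wall were described by list. The epithelium held no called gene among 15 colonocyte (median 0.01), 12 goblet (-0.17), 15 tuft (-0.11) and 17 crypt proliferation genes (0.10). Fibroblasts (15 genes, 0.15) and adipocytes (10, -0.35) likewise held none. Smooth muscle (12 genes), enteric neurons and glia (18) and mesothelium (10) held none either, and their medians differed in sign between the genotypes, at 0.06, 0.21 and 0.15 in WT and -0.44, -0.35 and -0.31 in Pxr-/-. Lymphocyte and antigen presentation genes had medians of -0.03 over 13 T and NK cell genes, -0.60 over 13 B and plasma cell genes and -0.31 over 9 MHC class II genes, and no call in any of the 3 lists. Within genotypes the medians of these lists were -0.15, -0.28 and -0.55 in WT and 0.12, -0.10 and -0.02 in Pxr-/-. Mast cell proteases Mcpt1 (0.96), Mcpt2 (0.87) and Mcpt4 (0.99) had adjusted p-values of 0.127 to 0.245, and of 14 eosinophil, basophil and mast cell genes only Hdc was called. The 4 red cell genes measured had changes of -0.90 to -0.37, none of them called.

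**Figure D5:**
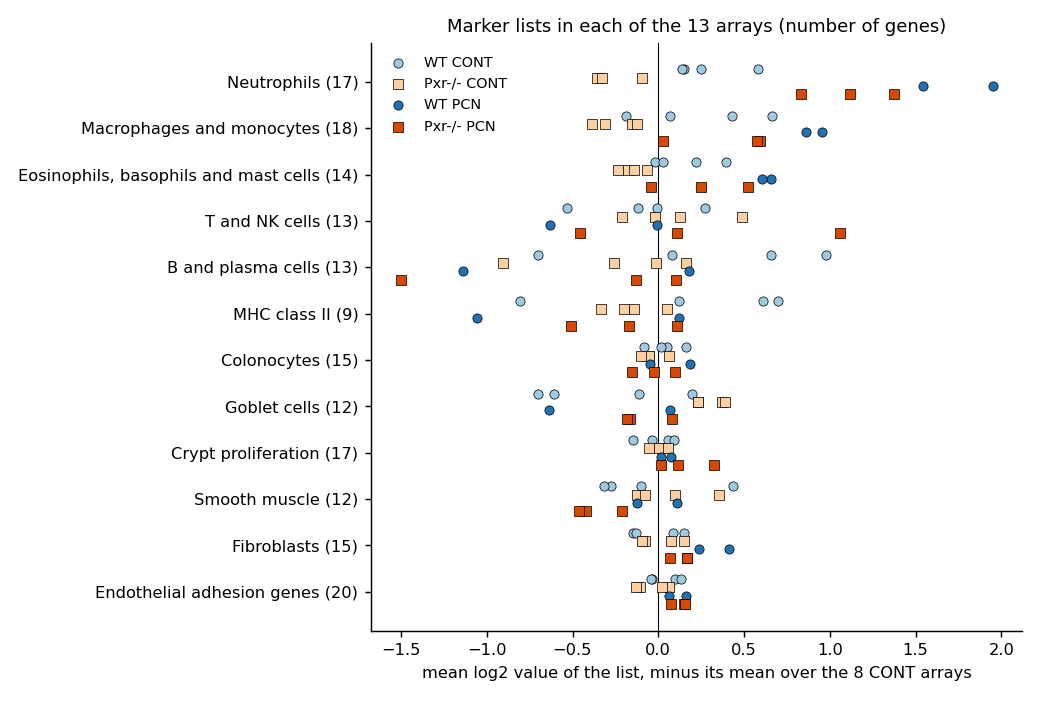
Mean log2 value of each marker list on each array, minus its mean over the 8 CONT arrays (horizontal), with the number of genes in brackets. Neutrophil markers, of which 10 of 17 were called on these same arrays, separate the 5 PCN arrays from all CONT arrays. Lists of epithelium, lymphocytes and muscle overlap.

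The same 62 higher probes were also read in the arrays that stood outside the comparison. Each pair of these carries conflicting labels, was normalised with the other arrays, and holds probes that are not independent of each other. The counts are therefore a description and do not test the changes. The mean of WT PCN replicate 4 and Pxr-/- PCN replicate 2, counted as 1 sample, lay above the highest CONT array for 47 of the 62 (75.8%), beside 7.0% of all probes. S100a9 was 11.64 and 11.69 in them, Cxcl5 9.10 in each and Selp 7.67 and 7.72. The mean of the libraries labelled WT PCN replicate 3 and Pxr-/- CONT replicate 2 lay above the highest CONT array for 1 of the 62 (1.61%, beside 9.92% of all probes) and inside the CONT range for 54. The library labelled WT PCN replicate 3 held S100a9 at 8.53, Cxcl5 at 5.93 and Selp at 6.60, among the CONT values. Whether its label is right was not tested.

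Wash batch and slide were examined for the called probes. The probes had been called on these same arrays, which favours the same direction within parts of them. The counts are therefore a description and do not test an effect of batch or slide. All 64 kept their direction in each of the 2 wash batches, with medians of the higher probes of 1.19 and 1.02. On the 3 slides that held both treatments, 64, 62 and 64 of the 64 kept their direction, with medians of 1.11, 0.66 and 1.21, but the genotypes of the PCN and CONT arrays differ in part on the first and second of these. In a comparison added after seeing the data, PCN arrays that shared a slide with a CONT array of their own genotype were set against it. These were WT PCN replicate 2, Pxr-/- PCN replicate 4 and WT PCN replicate 1. All 64 kept their direction on each slide, with medians of 1.30, 0.89 and 1.21. Pxr-/- PCN replicates 1 and 3 had no such CONT array and were not compared in this way.

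Promoters of the called genes were read to show the sequence next to their starts. Of the 52 higher genes with a symbol, 40 matched a RefSeq promoter of the GRCm38.p6 assembly, taken here as the 250 bases before a start site. The searched motifs, on both strands, were the AP-1 letters TGANTCA, the STAT letters TTCNNNGAA, the C/EBP letters TTGCNNAA (TTNNGCAA on the other strand) and the NF-kB letters GGGANTTCC (GGAANTCCC on the other strand). TTCNNNGAA stood in 12 of the 40 (30.0%) beside 7.41% of 13684 measured genes with a promoter, TTGCNNAA in 10 (25% beside 9.68%), TGANTCA in 5 (12.5% beside 6.34%), and GGGANTTCC in 0 (beside 2.03%). The usual kB site of 10 bases, which those letters do not cover and which was added after that count was seen, stood in 4 (10% beside 5.34%). The median GC content was 48.2% in these promoters and 58.4% in all, and its part in these shares was not tested. The 3 sequences shown are those of Il6, Serpinb2 and Tnfaip6, which hold at least 2 of the motifs and encode secreted or protease-controlling proteins of the response described above. Capitals mark the motif letters, and the start site follows the last base.
Il6, GRCm38.p6 chr5:30012864-30013113, plus strand: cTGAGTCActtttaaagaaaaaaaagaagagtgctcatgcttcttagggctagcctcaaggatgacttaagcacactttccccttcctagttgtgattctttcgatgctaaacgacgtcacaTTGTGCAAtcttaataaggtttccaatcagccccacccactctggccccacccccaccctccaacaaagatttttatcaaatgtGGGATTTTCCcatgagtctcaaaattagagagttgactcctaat
Serpinb2, GRCm38.p6 chr1:107511260-107511509, plus strand: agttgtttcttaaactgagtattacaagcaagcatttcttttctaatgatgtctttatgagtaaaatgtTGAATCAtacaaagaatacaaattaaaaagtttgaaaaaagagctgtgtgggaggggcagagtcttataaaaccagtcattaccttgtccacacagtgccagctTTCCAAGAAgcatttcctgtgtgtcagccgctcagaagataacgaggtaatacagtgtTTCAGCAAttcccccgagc
Tnfaip6, GRCm38.p6 chr2:52037863-52038112, plus strand: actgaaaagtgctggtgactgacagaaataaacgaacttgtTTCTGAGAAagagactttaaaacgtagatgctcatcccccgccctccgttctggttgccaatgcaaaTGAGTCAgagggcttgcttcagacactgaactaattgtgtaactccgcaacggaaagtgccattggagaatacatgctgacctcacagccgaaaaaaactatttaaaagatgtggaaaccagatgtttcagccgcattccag
Il6 holds the AP-1 letters 249 to 243 bases before its start, the C/EBP letters 128 to 121 bases before it and the kB site of 10 bases at 44 to 35. Serpinb2 holds the AP-1 letters at 181 to 175, the STAT letters at 77 to 69 and the C/EBP letters at 19 to 12. Tnfaip6 holds the STAT letters at 209 to 201 and the AP-1 letters at 142 to 136. A match of letters is a description of the sequence and not of binding.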

How the data were processed

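Colon RNA was hybridised to 1-colour Agilent arrays. Per the study's methods, the authors filtered and log2 transformed the median signal intensity, corrected it for the washing batch and normalised it by CrossNorm. The deposited log2 values of 36695 probes were used as they stand. The methods text names the liver arrays of the same design, and was checked here on the colon values, in which each column has the same quantiles and the mean difference between washing batches is removed per probe. The deposited intensity values of the scanner files, made with Agilent Feature Extraction 10.10.1.1 according to the submitters' processing notes, gave background flags, probe sequences and alternative normalisations. The number of arrays limits the precision.

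Probes were named through RefSeq (GRCm38.p6): 24138 by accession, 5844 by symbol and 310 by synonym, while 6403 kept the file's name. A limma fit (limma 3.58.1, R 4.3.3) with treatment, genotype and washing batch was run over all probes of 13 arrays, and a second fit with 4 groups gave the effects within genotypes and their difference, both with Benjamini-Hochberg adjustment over all probes and tested on simulated data. A gene was represented by its called probe with the smallest p, or in lists by its brightest probe. For probes not well above background in a whole group, each array's lowest well-above-background value served as the floor. Named genes were Nr1i2, the 15 higher and 15 lower non-overlapping called genes of largest change, called genes on 18 pathway and 23 marker lists, genes of the interaction test and the PXR targets; others were chosen after their values were seen. Members and lists were chosen with earlier results of these data known. Alternatives covered normalisation, arrays, batch, slide, replicate number, thresholds and filters.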

Additional observations from a re-analysis of the deposited data

Results flagged for a closer look

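The difference between genotypes in the PCN effect on Sh2d7 passed its own test, at 1.94 log2 units (WT minus Pxr-/-). The arrays outside the comparison, WT PCN replicate 4 and Pxr-/- PCN replicate 2, had a mean above the highest CONT array for 47 of 62 higher probes, and below the lowest PCN array for 24 of the 62. The other arrays outside the comparison, labelled WT PCN replicate 3 and Pxr-/- CONT replicate 2, had a mean above the highest CONT array for 1 of 62. The Sh2d7 difference was lost in 7 of 13 fits that left out an array. Dixon's ratio singled out 0 of 68 groups of 4 arrays tested, all of them CONT. The PCN groups held fewer than 4 arrays and were not tested for outliers.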

How the results depend on the processing

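The 58 genes became 60 with the median spot signal, 60 with the scanner-processed signal, 52 with normexp and 62 with slide as a random block, and the share of lower calls stayed small except without WT PCN replicate 2 (33 higher and 12 lower). Larger moves were 4 with all 17 arrays as labelled, 29 when WT PCN 1 and WT CONT 4 and 5 were left out, 3 with Pxr-/- arrays alone, 88 with no wash batch term, 0 with slide as a fixed block (limma, smallest adjusted p 0.622, with 1251 probes at an unadjusted p under 0.05), 103 at an adjusted p of 0.1 and 37 at a fold of 2. With the replicate number as a block 32 genes were called, 27 of them among the 58; the 11 same-numbered pairs correlated from -0.277 to 0.569, 7 of them over 0.1, and since not every pair did and the labels name no shared animal or litter, the numbers were not taken to pair the samples. Leaving out 1 array gave 27 to 73 genes, the fewest without Pxr-/- PCN replicate 3 and 37 without WT PCN replicate 1 or Pxr-/- CONT replicate 5; 26 of the genes were called in each of the 13 fits, among them S100a8, S100a9, Cxcl5, Ccl2, Il33, Selp, Serpina3n and Ifitm1. Called in fewer than 7 of the 13 were Ltb4r1, Aldh1a3 and Mmp8 (2), Calca, Sphk1, Sirpb1b, Arg1, Tspan4, Pip5k1a and Scube3 (3), Gem, ENSMUST00000197560 and Hdc (4), Spp1 (5), and Cyp7b1 and Fcgr3 (6). No called probe changed direction in any of these fits. The single gene of the genotype difference became 0 with the scanner-processed signal, all 17 arrays, WT PCN replicate 4 added, slide as a fixed block and the replicate block, 4 with Pxr-/- PCN replicate 2 added, 15 when WT PCN 1 and WT CONT 4 and 5 were left out, 2 with array weights, and 0 to 22 when 1 array was left out (22 without WT PCN replicate 2, 15 without WT PCN replicate 1, 4 without WT CONT replicate 5 and 2 without WT CONT replicate 4). Sh2d7 was lost in 7 of these 13 fits, those without WT CONT replicate 2 or 3, Pxr-/- CONT replicate 3, 4 or 5, or Pxr-/- PCN replicate 1 or 3. The cause of these moves was not tested. The array background comparison gave 0.104 scanner units with the median and 0.0896 with the mean. With 2 WT PCN arrays, a WT change rests on few animals, and probes dim in CONT give only a lower bound.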
